A study of Mus musculus with 2 samples.

Results

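The genes described here are the tumour necrosis factor (TNF) superfamily of ligands and receptors, with the ectodysplasin and RANKL branches, in lower molar mesenchyme of mouse embryos. They were chosen by name: every gene whose symbol starts with Tnfsf or Tnfrsf, together with Eda, Edar, Edaradd, Eda2r, Tnf, Lta, Ltb, Ltbr, Fas, Fasl, Cd27, Cd40, Cd40lg, Cd70 and Relt. This gave 46 of the 22072 genes in the files, of which 18 encode ligands, 27 encode receptors and 1, Edaradd, encodes an adaptor. Receptors of the superfamily listed under other symbols, such as Ngfr, are not among these 46 members. One library came from Osr2-/- embryos (mutant, n = 1) and the other from Osr2+/- embryos (control, n = 1), both on a mixed background at embryonic day 14.5. Osr2 is a transcription factor with zinc fingers that restrains tooth formation; in its absence supernumerary teeth arise lingual to the mouse molars. The control thus also carried 1 mutant Osr2 allele, per its label, although the series title speaks of wild type. Mesenchyme was cut from frozen sections by laser capture, and tissue from 3 pairs of samples was combined before RNA extraction, so each library is an average over embryos. There are no replicates, so no difference below has a replicate check and no test of genotype was possible.

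TNF ligands are mostly trimeric proteins of the cell surface that can be shed by proteases, and they act on receptors of neighbouring cells. Receptors with a death domain can recruit caspase-8 through Fadd, while most others bind TRAF adaptors and activate NF-kappaB. In teeth, ectodysplasin (Eda) acts through its receptor Edar and the adaptor Edaradd, and loss of any of these genes in mice alters the number or shape of the teeth. RANKL (Tnfsf11) acts through RANK (Tnfrsf11a) to form osteoclasts, the bone-resorbing cells that open the space for a growing tooth, and osteoprotegerin (Tnfrsf11b) is a soluble decoy receptor that binds RANKL.

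The promoters of 4 members are printed because the contrasts below turn on these genes: Tnfrsf1a had the highest level in both libraries, Tnfrsf21 was lower in the mutant with the most reads, and Eda and Tnfsf11 are the ligands of the tooth and osteoclast branches. Each run holds the 250 bases before the RefSeq gene start in build GRCm38.p6, read on the gene's strand, and capitals mark motif matches on either strand. The GC box was searched as GGGCGG. The TATA box, the other motif in capitals, was searched as TATAAA. Tnfrsf1a lies at chr6:125349473-125349722 on the plus strand, Tnfrsf21 at chr17:43016305-43016554 on the plus strand, Tnfsf11 at chr14:78308044-78308293 on the minus strand and Eda at chrX:99975356-99975605 on the plus strand.
Tnfrsf1a: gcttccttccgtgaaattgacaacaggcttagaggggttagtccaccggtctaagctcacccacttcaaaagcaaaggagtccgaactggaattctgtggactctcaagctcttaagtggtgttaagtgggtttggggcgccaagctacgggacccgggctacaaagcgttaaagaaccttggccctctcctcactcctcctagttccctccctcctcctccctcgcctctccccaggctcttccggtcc
Tnfrsf21: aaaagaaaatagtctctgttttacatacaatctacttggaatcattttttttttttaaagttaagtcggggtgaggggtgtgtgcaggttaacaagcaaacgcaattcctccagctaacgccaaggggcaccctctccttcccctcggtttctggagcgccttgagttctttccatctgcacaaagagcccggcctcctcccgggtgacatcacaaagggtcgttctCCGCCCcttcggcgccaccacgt
Tnfsf11: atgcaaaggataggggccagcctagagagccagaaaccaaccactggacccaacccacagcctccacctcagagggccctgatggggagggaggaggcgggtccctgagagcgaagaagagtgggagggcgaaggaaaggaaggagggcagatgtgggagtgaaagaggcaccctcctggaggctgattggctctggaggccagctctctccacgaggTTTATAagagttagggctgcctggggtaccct
Eda: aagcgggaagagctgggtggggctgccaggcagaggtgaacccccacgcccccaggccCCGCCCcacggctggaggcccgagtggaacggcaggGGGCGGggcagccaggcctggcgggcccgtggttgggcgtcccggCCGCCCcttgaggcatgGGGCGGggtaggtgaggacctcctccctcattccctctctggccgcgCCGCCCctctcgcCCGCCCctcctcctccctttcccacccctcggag
The Eda promoter held 6 GC boxes and was 75.6% G and C, the Tnfrsf21 promoter held 1 GC box, the Tnfsf11 promoter held 1 TATA box read on the other strand, and the Tnfrsf1a promoter held neither. Of the 46 members, 36 matched the RefSeq table by symbol, with 40 promoters between them. A GC box was found in 3 of the 5 matched members that reached 1 RPKM, in 12 of the 21 with a read but under 1 RPKM and in 3 of the 10 with no read, against 32.7% of all 32851 promoters of that length. A TATA box was found in 0 of 5, 5 of 21 and 2 of 10, against 12.4% of all promoters. The letters CTTTGAA, one form of the TCF/LEF site, were found in 1 member, Fas, against 4.46% of all promoters. One form of the NF-kappaB site was found in 1 member, Ltb, against 0.356% of all promoters. These motifs were searched on both strands and do not contain one another. A match describes the letters of the window only.

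Levels are in RPKM, a read density corrected for transcript length and for the mapped reads of the library, summed over the transcript rows of a gene, so they may be compared between genes per length. Read numbers were estimated from the deposited coverage, at about 33.9 M mapped reads in the mutant and 5.31 M in the control, so that the mutant library was 6.38 times as deep. Every interval is a 95% counting interval on those reads. It covers counting error only, since reads of amplified cDNA that carry no molecular identifiers cannot be counted as molecules, and an interval of a ratio that excludes 1 compares these 2 libraries and not the genotypes. Osr2 was 9.16 RPKM in the mutant and 38.7 RPKM in the control, 4.23-fold lower (3.69 to 4.86). Which part of Osr2 the allele lacks is not given in the sources read, so it is not known whether these reads lie outside it. All 14 dental mesenchyme markers, Osr2 itself among them, were at 1 RPKM or more in at least 1 library, with a summed level of 360.3 RPKM in the mutant and 473.1 in the control. The 22 dental epithelium markers in the files summed to 67.1 RPKM in the mutant and 48.0 in the control. Marker sums in RPKM were also higher in the mutant for chondrocytes (mutant 18.4, control 12.6), neurons and Schwann cells (mutant 20.8, control 13.4) and skeletal muscle (mutant 2.86, control 1.74), and lower for endothelium (mutant 31.5, control 39.1) and erythroid cells (mutant 926.9, control 1162.8). Ddx3y, Kdm5d, Uty and Eif2s3y, which are Y-linked, summed to 0.000159 RPKM in the mutant and 9.95 in the control, and Xist was 30.0 RPKM in the mutant and 5.21 in the control, so the pools differed in the sex of their embryos. Lane also differed between the libraries, per the names of the deposited files, and cannot be told apart from genotype. In such bulk libraries fewer cells of a type and less RNA per cell cannot be told apart.

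Receptors made up most of the family's RNA in this tissue. The 27 receptors summed to 23.8 RPKM in the mutant and 27.4 RPKM in the control, while the 18 ligands summed to 3.75 RPKM in the mutant and 3.41 RPKM in the control. At least 1 estimated read, counted from 0.5 upwards, was found for 24 receptors and 5 ligands in the mutant and for 19 receptors and 5 ligands in the control. Of all 46 members, 22 had reads in both libraries, 8 in the mutant only, 3 in the control only and 13 in neither. Ligands made up 12 of these 13: Tnfsf4, Tnfsf8, Tnfsf13, Tnfsf13b, Tnfsf14, Tnfsf15, Tnfsf18, Cd70, Cd40lg, Fasl, Lta and Ltb. The whole Tnfsf13 locus is overlapped by the transcript BC096441, which was 0.510 RPKM in the mutant and 0.780 RPKM in the control. Reads of Tnfsf13 may have been assigned to that transcript, so its lack of reads may not be a lack of RNA. The 1 receptor without a read was Tnfrsf8, known as a receptor of activated lymphocytes. For these 13 genes the level that 3 reads would give ranged over 0.0152 to 0.105 RPKM in the mutant and over 0.0970 to 0.671 RPKM in the control, so low expression was not detectable at this depth, and an exact 0 in such files can also be a failed estimate. None of the 12 lymphocyte markers in the files reached 1 RPKM, their sum was 1.27 RPKM in the mutant and 1.05 in the control, and Cd3g and Ms4a1 had no read in either library.

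**Figure D1:**
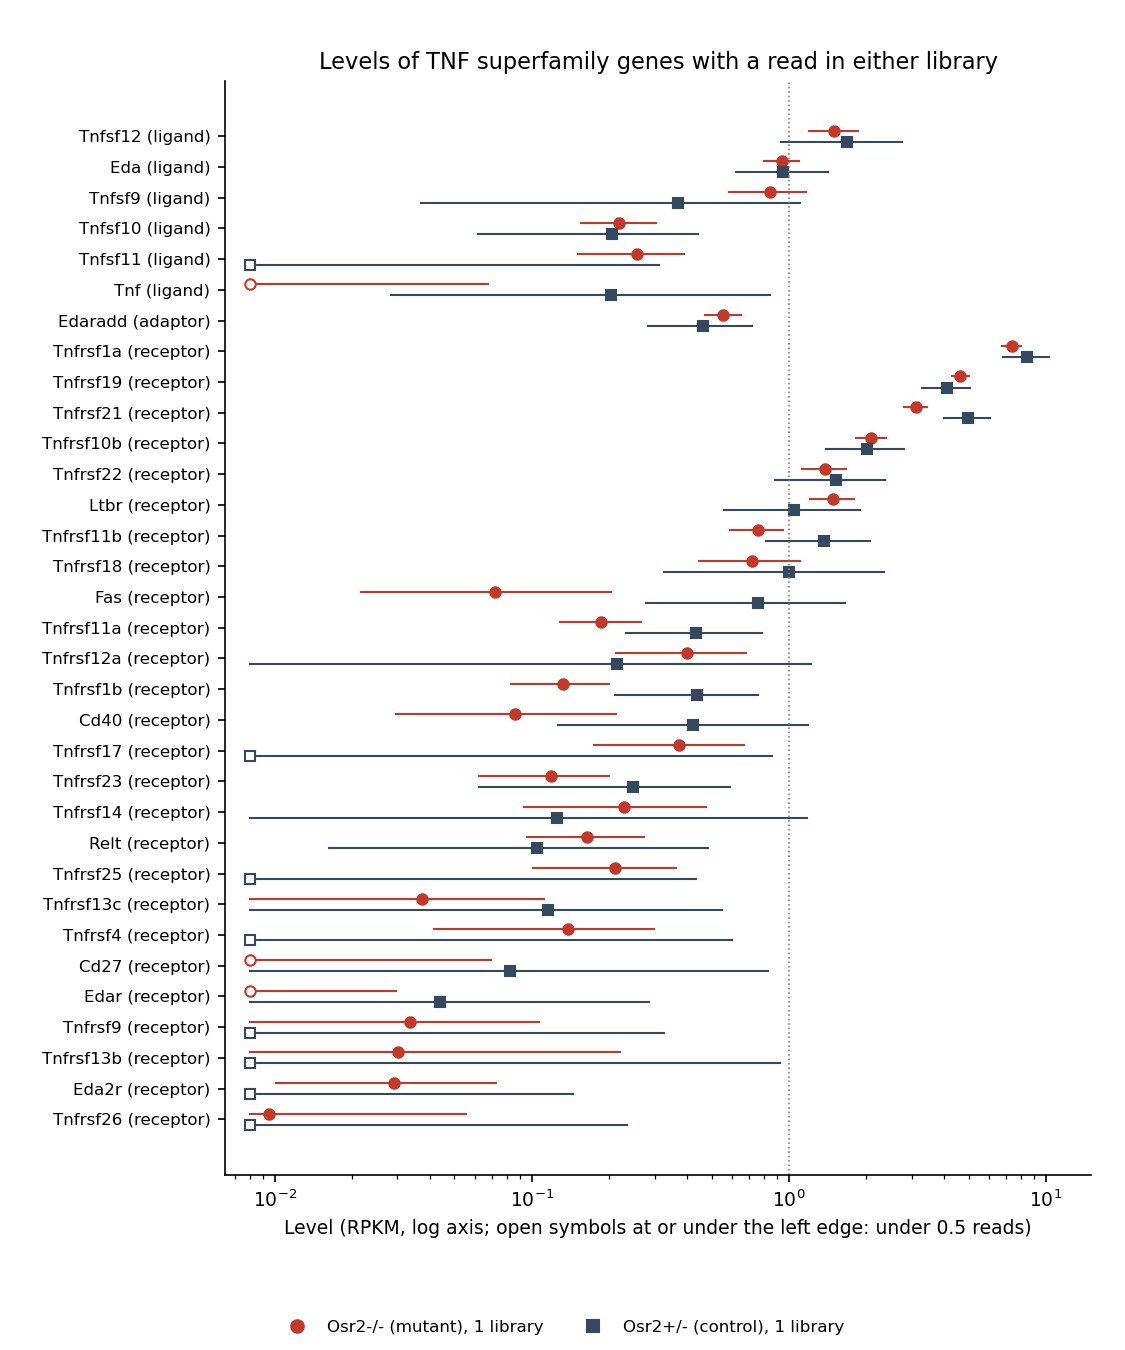
Levels of the 33 members with a read in at least 1 library, in RPKM on a log axis, with 95% counting intervals; red circles are the Osr2-/- library, dark squares the Osr2+/- library, and open symbols at the left edge stand for fewer than 0.5 reads. Tnfrsf1a is highest in both libraries, at 7.38 RPKM in the mutant and 8.40 in the control, and most members lie under the dotted line at 1 RPKM.

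Comparisons of level used the log2 ratio of RPKM + 1, mutant over control, for genes at 1 RPKM or more in at least 1 library. That measure understates the differences of low genes, so plain ratios of RPKM are given beside it. Counts of genes 2-fold apart, here and below, use that measure, so a gene not counted can differ more than 2-fold in plain RPKM. The measure could be formed for 9 members, namely 1 ligand and 8 receptors, and for 9779 genes in all. A gene that reached 1 RPKM in 1 library only is higher in that library by the filter itself, here and in the lists below. Among the members Tnfrsf11b and Tnfrsf18 did so, both in the control. Counts of lower members and the medians below therefore rest partly on the filter. None of the 9 members was 2-fold higher in the mutant, against 0.89% of all genes compared, and 0 were 2-fold lower, against 0.798%. The ratio interval lay above 1 for 0 of 9, against 7.75% of all genes, and below 1 for 2 of 9, Tnfrsf21 and Tnfrsf11b, against 15.7%. Shares of a list this small are coarse beside these backgrounds. The median log2 ratio was -0.11 over the 9 members, -0.12 over the 8 receptors and -0.05 over all genes compared, with 3 members higher and 6 lower in the mutant. Among the 33 members with a read the interval lay above 1 for 0 and below 1 for 7, against 5.54% and 11.7% of the 15896 genes with a read. These 7 were 6 of 26 receptors and 1 of 6 ligands.

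**Figure D2:**
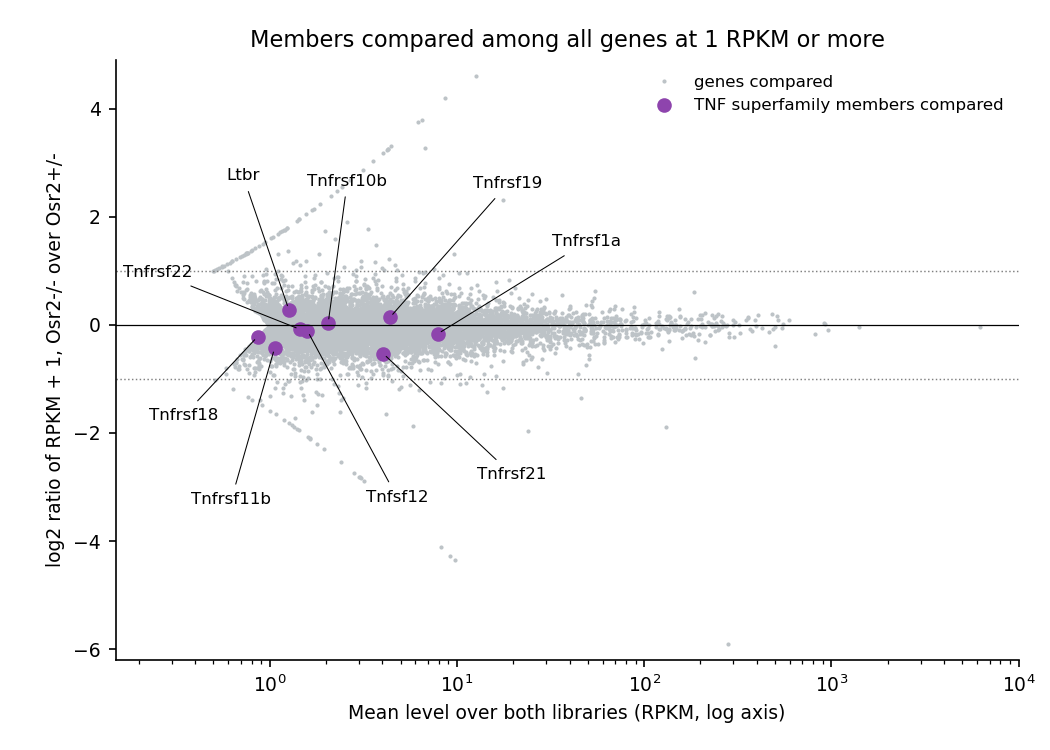
The log2 ratio of RPKM + 1, Osr2-/- over Osr2+/-, against the mean level over both libraries in RPKM (log axis), for the 9779 genes compared (grey) and the 9 members among them (purple); dotted lines mark 2-fold. The 9 members lie inside the 2-fold lines, with Tnfrsf21 lowest at -0.53 and Ltbr highest at 0.28.

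Among the receptors with a death domain, Tnfrsf1a, the main receptor for TNF, was the most abundant member. It was 7.38 RPKM (6.76 to 8.02, 538 reads) in the mutant and 8.40 RPKM (6.80 to 10.2, 96.1 reads) in the control, at chr6:125299741-125312501 in build mm9. The intervals overlapped, and the ratio of 0.878 (0.706 to 1.10) included 1. By its mean level Tnfrsf1a stood at rank 2245 of the 15896 genes with a read. Its ligand Tnf, an inflammatory cytokine made largely by macrophages, was listed at 0 in the mutant and at 0.203 RPKM (1.74 reads) in the control. No fold is given against a listed 0. The upper bound of the Tnf ratio was 0.835, but it was 6.11 with 2 times as many bases taken per read, so that call ended. Ngfr, a death-domain receptor that the choice by symbol left out, was higher than Tnfrsf1a in both libraries. It was 13.3 RPKM in the mutant and 9.86 RPKM in the control, a ratio of 1.35 (1.15 to 1.58).

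Tnfrsf21, known as death receptor 6 and best studied in neurons and lymphocytes, was lower in the mutant. It was 3.12 RPKM (2.82 to 3.45, 383 reads) in the mutant and 4.95 RPKM (3.99 to 6.03, 95.3 reads) in the control, at chr17:43153504-43226137 (mm9). These intervals did not overlap, and the level was 1.59-fold lower (1.25 to 1.99), a log2 ratio of -0.53. The interval of the ratio still ended at 0.875, below 1, with 2 times as many bases taken per read. The summed dental mesenchyme markers, a sum that holds Osr2 itself, were lower in the mutant too. Of the 14, Osr2 among them, 9 had an interval below 1 and 0 above, against 15.7% and 7.75% of all genes compared. By log2 ratio 10 of the 14 were lower and 4 higher, the latter being Prrx2, Twist1, Dlx2 and Bmp4. The part of tissue composition in the Tnfrsf21 difference was not tested.

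Tnfrsf10b, the death receptor for TRAIL (Tnfsf10), was 2.09 RPKM (225 reads) in the mutant and 2.02 RPKM (34.0 reads) in the control, and the ratio of 1.04 had an interval of 0.721 to 1.54. Tnfsf10 itself was low, at 0.218 RPKM in the mutant and 0.204 RPKM in the control. Tnfrsf22, a mouse decoy receptor for TRAIL, was 1.38 RPKM (1.13 to 1.66) in the mutant and 1.52 RPKM (0.883 to 2.36) in the control. Tnfrsf10b, Tnfrsf22 and Tnfsf10 thus had ratio intervals that included 1, from 0.557 to 1.62 for Tnfrsf22 and from 0.455 to 3.78 for Tnfsf10. Tnfrsf22 lies in a group of closely similar genes with Tnfrsf26 and Tnfrsf23, within chr7:150793590-150871777 (mm9, 78.2 kb), so the split of reads among them is uncertain. Tnfrsf23, the other decoy, was 0.119 RPKM in the mutant and 0.248 RPKM in the control (ratio interval 0.157 to 2.15), and Tnfrsf26 had fewer than 1 read in each library.

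Fas, the death receptor for Fas ligand, was low in both libraries and lower in the mutant. It was 0.0716 RPKM (0.0217 to 0.204) in the mutant and 0.759 RPKM (0.279 to 1.66) in the control, which is 10.6-fold lower, with a wide interval of 2.27 to 46.1. This fold rests on 3.60 reads in the mutant and 5.99 in the control, all on 1 of 2 transcript rows. Fas ligand had no read in either library.

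Tnfrsf19, also called Troy, an orphan-type receptor expressed in many embryonic epithelia and mesenchymes, was the other abundant receptor. It was 4.64 RPKM (4.29 to 5.02, 640 reads) in the mutant and 4.13 RPKM (3.29 to 5.06, 88.5 reads) in the control, with a ratio of 1.12 (0.911 to 1.44). Of its 2 transcript rows, the 4036-base one held 4.38 RPKM in the mutant and 4.13 RPKM in the control. The 4639-base row held 0.269 RPKM (42.2 reads) in the mutant and fewer than 0.5 reads in the control. How Cufflinks divides reads between such overlapping rows was not tested.

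The order of the levels differed between the libraries only at Tnfrsf19 and Tnfrsf21 among the top 4. In the mutant it ran Tnfrsf1a, Tnfrsf19, Tnfrsf21, Tnfrsf10b, with no overlap between neighbouring intervals. In the control it ran Tnfrsf1a, Tnfrsf21, Tnfrsf19, Tnfrsf10b, and the intervals of Tnfrsf21 and Tnfrsf19 overlapped. Lower among the 9 members compared, neighbours overlapped in both libraries, apart from the step from Tnfrsf22 to Tnfrsf11b in the mutant.

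In the ectodysplasin branch the ligand and the adaptor were detected at similar levels in both libraries, and the receptor was at or near 0. Eda was 0.941 RPKM (0.796 to 1.10, 156 reads) in the mutant and 0.945 RPKM (0.620 to 1.42, 24.7 reads) in the control, at chrX:97170945-97596099 (mm9). The intervals of this gene, whose promoter held 6 GC boxes, overlapped, and the ratio of 0.995 had an interval of 0.639 to 1.56, so a difference under about that size was not detectable. Of its 9 transcript rows, the same 4913-base row held nearly all reads in both libraries. Edaradd, the death-domain adaptor of Edar, was 0.552 RPKM (152 reads) in the mutant and 0.463 RPKM (19.9 reads) in the control, with a ratio of 1.19 (0.745 to 2.01). Edar, which is known from the enamel knot and other dental epithelium, was listed at 0 in the mutant, where 3 reads would give 0.0241 RPKM, and at 0.0438 RPKM (0.856 read) in the control. Eda2r, the X-linked receptor for the other main Eda isoform, was 0.0290 RPKM (4.66 reads) in the mutant and listed at 0 in the control, where 3 reads would give 0.118 RPKM. Neither receptor could be compared. Eda and Eda2r are X-linked, and the sex of the pools differed as given above, a difference whose part in their values was not tested.

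Genes known to respond to Eda in ectodermal organs differed in both directions. Of 12 such genes 5 could be compared, and 0 were 2-fold apart in either direction on the log2 ratio of RPKM + 1. Among all genes compared 0.89% were 2-fold higher and 0.798% lower. A ratio interval above 1 was found for 2 and below 1 for 1, against 7.75% and 15.7% of all genes compared. The median log2 ratio of the 5 was 0.22 against -0.05 over all genes compared. The 2 above, Foxi3 and Lrp4, reached 1 RPKM in the mutant only, so the count above 1 and the median rest partly on that filter. Without it 11 genes had a read, with 2 intervals above 1 and 1 below, against 5.54% and 11.7% of all genes with a read. Foxi3, a forkhead factor of hair and tooth epithelium, was 1.60 RPKM (65.4 reads) in the mutant and 0.515 RPKM (3.30 reads) in the control, a ratio of 3.11 (1.11 to 16.9). Lrp4, a co-receptor that modulates Wnt signalling, was 1.26 RPKM in the mutant and 0.741 RPKM in the control, a ratio of 1.71 (1.09 to 2.44). Sostdc1, a secreted antagonist of BMP and Wnt that also binds Lrp4, was 43.3 RPKM in the mutant and 55.6 RPKM in the control, 1.28-fold lower (1.17 to 1.41). Ctgf, a matrix-associated growth factor, was 2.43 RPKM in the mutant and 1.94 RPKM in the control (ratio interval 0.817 to 1.97). Dental epithelium markers were higher in the mutant, as Foxi3 and Lrp4 were. Of 13 markers that could be compared 7 had an interval above 1 and 0 below, against 7.75% and 15.7% of all genes compared. The median log2 ratio of these markers was 0.40, and 1 of the 22 in the files had no read in the mutant and 5 had none in the control. Their part in these ratios was not tested.

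In the RANKL branch both receptors were lower in the mutant, and the ligand had reads in the mutant only. Osteoprotegerin (Tnfrsf11b) was 0.758 RPKM (0.590 to 0.95, 72.3 reads) in the mutant and 1.37 RPKM (0.817 to 2.06, 20.4 reads) in the control, at chr15:54082174-54110039 (mm9). It was 1.80-fold lower (1.02 to 2.94), with level intervals that overlapped and a ratio interval that just excluded 1. With 2 times as many bases taken per read the ratio interval reached 1.28, and scaling by the median ratio also made it include 1. RANK (Tnfrsf11a), carried by osteoclast precursors, was 0.186 RPKM (0.129 to 0.266, 31.7 reads) in the mutant and 0.437 RPKM (0.233 to 0.786, 11.6 reads) in the control, 2.35-fold lower (1.12 to 4.77). Its level intervals overlapped as well, and with 2 times as many bases taken per read its ratio interval reached 1.30. RANKL (Tnfsf11), at chr14:78677253-78707850 (mm9), was 0.257 RPKM (0.151 to 0.392, 19.5 reads) in the mutant and listed at 0 in the control. At the depth of the control the mutant level would give 3.05 reads, and 3 reads in the control correspond to 0.253 RPKM. The RANKL levels could therefore not be told apart at this depth, and a ratio of RANKL to osteoprotegerin was not formed against a listed 0.

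**Figure D3:**
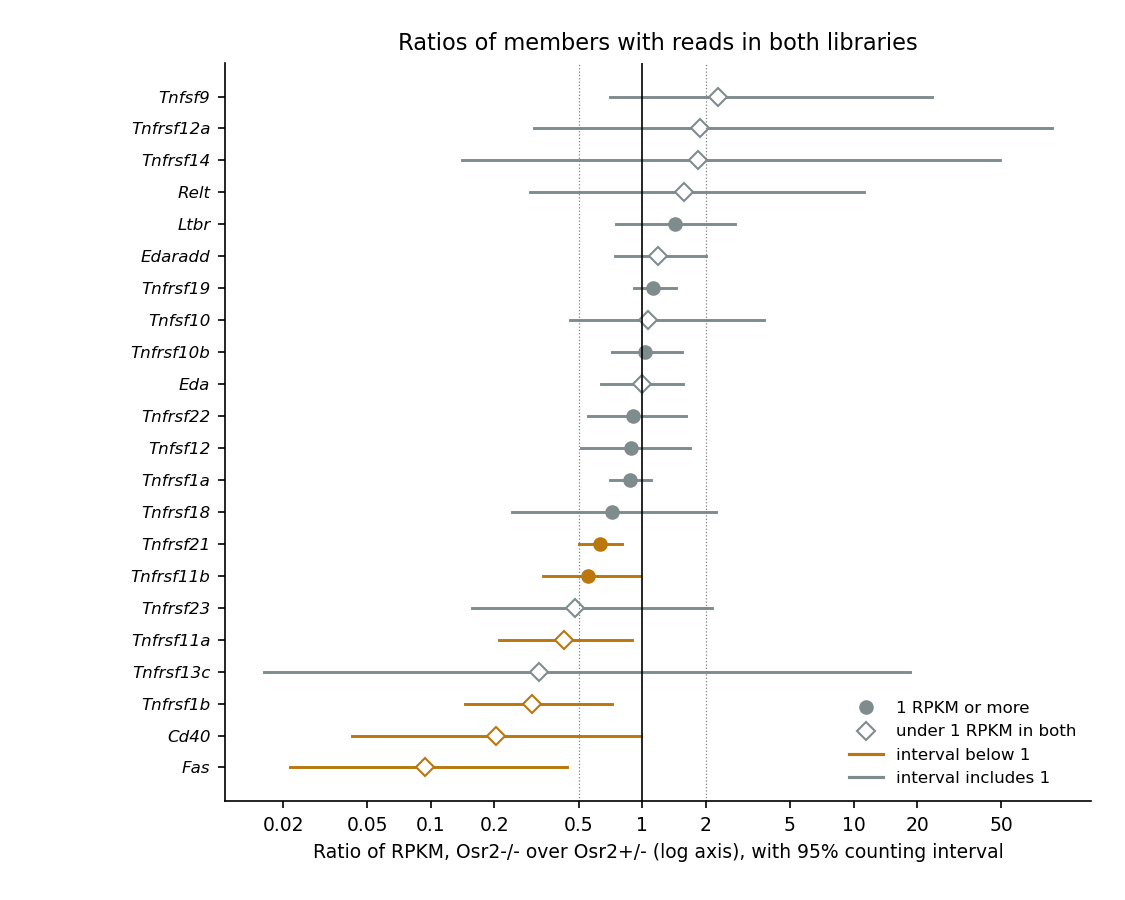
Ratio of RPKM, Osr2-/- over Osr2+/-, on a log axis with its 95% counting interval, for the 22 members with a read in both libraries; filled circles reached 1 RPKM in a library, open diamonds did not, and orange marks an interval below 1. The 6 orange members run from Fas, 10.6-fold lower, to Tnfrsf21, 1.59-fold lower, and no interval lies above 1.

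Osteoclast genes outside the family were mixed. Of 13 in the files 6 could be compared, 1 was 2-fold higher and 0 were 2-fold lower, against 0.89% and 0.798% of all genes compared. The interval lay above 1 for 2 and below 1 for 1, against 7.75% and 15.7%, and the median of the log2 ratios was -0.14. Mmp9, a gelatinase of osteoclasts and other cells, was 4.66 RPKM (495 reads) in the mutant and 0.502 RPKM (8.37 reads) in the control, 9.27-fold higher (4.89 to 22.6). Ctsk, the collagen-degrading cathepsin of osteoclasts and some fibroblasts, was 2.65 RPKM in the mutant and 5.07 RPKM in the control, 1.92-fold lower (1.31 to 2.75). Ctsk is named after its value was seen, because it stood opposite to Mmp9, and so are the next 3 genes, because they mark osteoclasts. Acp5, the tartrate-resistant phosphatase that defines osteoclasts, was 0.442 RPKM in the mutant and 0.508 RPKM in the control, with a ratio interval of 0.263 to 3.15. Oscar, a receptor of osteoclasts, and Tm7sf4, a membrane protein needed for their fusion, had no read in either library. Other genes of this list went the other way and are also named after their values were seen. Nfatc1, the other gene with an interval above 1, was 2.80 RPKM in the mutant and 2.03 RPKM in the control, a ratio of 1.38 (1.03 to 1.90). Itgb3 was 0.660 RPKM in the mutant and 0.525 RPKM in the control (ratio interval 0.749 to 2.28). Calcr (4.39 reads) and Trem2 (3.89 reads) had reads in the mutant only.

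Genes through which mesenchymal and bone cells act on osteoclasts included several bone-forming genes. Of 13 such genes 9 could be compared, 3 were 2-fold higher and 0 were 2-fold lower, against 0.89% and 0.798% of all genes compared. The interval lay above 1 for 4 and below 1 for 3, against 7.75% and 15.7%, and the median of the log2 ratios was 0.24. The 3 that were 2-fold higher are known as osteoblast genes rather than as signals to osteoclasts. Ibsp, a sialoprotein of bone matrix, was 13 RPKM in the mutant and 0.459 RPKM in the control, 28.4-fold higher (11.6 to 83.6). Sp7, the osteoblast transcription factor osterix, was 3.84 RPKM in the mutant and 0.607 RPKM in the control, 6.33-fold higher (3.19 to 16.7). Alpl, the phosphatase of mineralising cells, was 6.51 RPKM in the mutant and 2.22 RPKM in the control, 2.93-fold higher (2.01 to 4.33). Csf1, the macrophage growth factor that acts beside RANKL and is named for that role after its value was seen, was 1.98 RPKM in the mutant and 3.02 RPKM in the control, 1.53-fold lower (1.14 to 2.07). The 10 osteoblast markers, some of which are the same genes, summed to 68.8 RPKM in the mutant and 37.4 in the control. Their interval lay above 1 for 5 and below 1 for 1, against 5.54% and 11.7% of all genes with a read. The one below was Phex, an endopeptidase of bone cells, at 1.05 RPKM in the mutant and 1.78 RPKM in the control, 1.69-fold lower (1.24 to 2.26). Osteoprotegerin, itself a product of osteoblasts and other stromal cells, was lower in the mutant as given above. The part of bone cells in these values was not tested.

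Receptors best known from immune cells were mostly under 1 RPKM, and Tnfrsf1b and Cd40 were lower in the mutant. Tnfrsf1b, the other TNF receptor, was 0.132 RPKM (0.0829 to 0.20, 22.0 reads) in the mutant and 0.439 RPKM (0.211 to 0.755, 11.4 reads) in the control. Its level intervals did not overlap, and it was 3.32-fold lower (1.4 to 6.86). Cd40, a co-stimulatory receptor of antigen-presenting cells, was 0.0861 RPKM (4.73 reads) in the mutant and 0.424 RPKM (3.65 reads) in the control, a ratio of 0.203 whose interval of 0.0422 to 0.988 just excluded 1. With 2 times as many bases taken per read the Cd40 interval reached 2.16, so that call ended. The macrophage markers were also lower in the mutant by their sum, which was 30.5 RPKM in the mutant and 39.3 in the control. In the files were 15 of them, all with a read in both libraries. Of the 15, 4 had an interval below 1 and 0 above, against 11.7% and 5.54% of all genes with a read. Among the 10 markers that could be compared 9 were lower and 1 higher by log2 ratio, with a median of -0.23. The higher one was Cd68, at 1.80 RPKM in the mutant and 1.35 RPKM in the control (ratio interval 0.625 to 3.54). Csf1r, the receptor that defines macrophages, was 2.31 RPKM in the mutant and 2.42 RPKM in the control. The part of macrophages in the values of Tnfrsf1b, Cd40, Tnfrsf11a and Tnf was not tested.

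The remaining members at 1 RPKM or more had ratio intervals that included 1. Tnfsf12 (TWEAK) was the one ligand to reach this level, at 1.49 RPKM (85.5 reads) in the mutant and 1.69 RPKM (15.2 reads) in the control, a ratio of 0.883 (0.516 to 1.68). Its whole locus is overlapped by the transcript BC096441, which was 0.510 RPKM in the mutant and 0.780 RPKM in the control, so reads of these genes may have been divided between them. The TWEAK receptor Tnfrsf12a was 0.402 RPKM in the mutant and 0.214 RPKM (0.975 read) in the control, with the reads on a different transcript row in each library. Ltbr, the lymphotoxin beta receptor, was 1.49 RPKM (105 reads) in the mutant and 1.04 RPKM (11.6 reads) in the control, a ratio of 1.42 (0.753 to 2.74), while its ligands Lta, Ltb and Tnfsf14 had no read in either library. Tnfrsf18, a receptor of regulatory T cells, was 0.720 RPKM (21.0 reads) in the mutant and 1.0 RPKM (4.98 reads) in the control, a ratio of 0.719 (0.242 to 2.24).

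The other members with reads stayed under 1 RPKM in both libraries and had ratio intervals that included 1 or no ratio. The ligand Tnfsf9, which activates T cells through Tnfrsf9, was 0.846 RPKM (35.2 reads) in the mutant and 0.370 RPKM (2.41 reads) in the control, a ratio of 2.29 with an interval of 0.705 to 23.5. The receptors Tnfrsf14, Tnfrsf13c and Relt had reads in both libraries, between 0.0375 and 0.229 RPKM in the mutant and between 0.104 and 0.125 RPKM in the control. The receptors Tnfrsf4, Tnfrsf9, Tnfrsf13b, Tnfrsf17, Tnfrsf25 and Tnfrsf26 had reads in the mutant only, from 0.00951 to 0.373 RPKM. With Eda2r and RANKL these make up the 8 members read in the mutant only, and RANKL was the 1 member of the 8 whose mutant level would give more than 3 reads at the control's depth. Cd27, Edar and Tnf were read in the control only, each with fewer than 3 reads.

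Several members are neighbours in the genome, and levels varied within these groups. Tnfrsf1a, Ltbr and Cd27 lie within chr6:125182640-125312501 (mm9, 129.9 kb), where the first was the family's highest gene and Cd27 had under 1 read in each library. Ltb, Tnf and Lta lie within chr17:35331452-35342296 (10.8 kb), where Tnf alone had reads. Tnfsf9, Cd70 and Tnfsf14 lie within chr17:57244808-57333609 (88.8 kb), where Tnfsf9 alone had reads. Tnfrsf1b lies 102.8 kb or less from Tnfrsf8, which had none.

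Downstream of the receptors, 17 of 27 adaptors and kinases could be compared, and 0 were 2-fold apart between the libraries. Over all genes compared 0.89% were 2-fold higher and 0.798% lower, so 0 in so short a list is near those shares. The interval lay above 1 for 0 and below 1 for 1, against 7.75% and 15.7% of all genes compared. The median of the log2 ratios was -0.05, as over all genes compared. The one below was Traf4, a TRAF protein of embryonic epithelia and neural tissue, at 2.67 RPKM in the mutant and 3.69 RPKM in the control, 1.38-fold lower (1.02 to 1.83). The next largest ratios were those of Birc3, an inhibitor-of-apoptosis ubiquitin ligase, at 1.05 RPKM in the mutant and 1.54 RPKM in the control, of Casp8, the initiator caspase, at 2.49 RPKM in the mutant and 3.09 RPKM in the control, and of Traf6, the RANK adaptor, at 2.14 RPKM in the mutant and 2.67 RPKM in the control. All of these 3 had ratio intervals that included 1. Counting also those under 1 RPKM, 3 of the 27 had an interval below 1, and 0 above, against 11.7% and 5.54% of all genes with a read. The count below 1 was thus near the share over all genes. The other 2 are named after their values were seen. Ikbkg, the regulatory subunit of the IkappaB kinase, was 0.621 RPKM (142 reads) in the mutant and 0.982 RPKM (35.1 reads) in the control, 1.58-fold lower (1.05 to 2.29). The remaining one was Map3k14, the kinase of the non-canonical NF-kappaB branch used by Ltbr, Cd40 and RANK. It was 0.0513 RPKM (7.25 reads) in the mutant and 0.386 RPKM (8.54 reads) in the control, 7.51-fold lower (2.72 to 25.9).

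Of 12 NF-kappaB factors and inhibitors 7 could be compared, and 0 were 2-fold apart on the log2 ratio of RPKM + 1. The shares over all genes compared were 0.89% higher and 0.798% lower. The interval lay above 1 for 0 and below 1 for 1, against 7.75% and 15.7% of all genes compared, and the median of the log2 ratios was 0.23. Tnfaip3, a deubiquitinating inhibitor that is itself an NF-kappaB target, was 0.560 RPKM (82.2 reads) in the mutant and 1.25 RPKM (28.8 reads) in the control, 2.23-fold lower (1.42 to 3.48). Rela, the transactivating subunit, was 5.38 RPKM in the mutant and 4.23 RPKM in the control, with a ratio interval of 0.970 to 1.68. Nfkbia and Nfkbib, the cytoplasmic inhibitors, were 1.37 and 1.37 RPKM in the mutant and 0.982 and 1.01 RPKM in the control, both with intervals that included 1.

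Of 7 proteases known to shed or process these ligands 5 could be compared, and 0 were 2-fold apart. Among all genes compared 0.89% were 2-fold higher and 0.798% lower. The interval lay above 1 for 1 and below 1 for 1, against 7.75% and 15.7% of all genes compared, and the median of the log2 ratios was -0.10. Pcsk5, a proprotein convertase, was 2.37 RPKM in the mutant and 1.70 RPKM in the control, a ratio of 1.39 (1.05 to 1.90). Mmp14, a membrane metalloproteinase that can release RANKL, was 19.7 RPKM in the mutant and 25 RPKM in the control, 1.27-fold lower (1.13 to 1.43). Furin, which cleaves Eda, was 3.79 RPKM in the mutant and 4.41 RPKM in the control, and Adam17, which sheds TNF, was 4.16 RPKM in the mutant and 3.65 RPKM in the control, with intervals that included 1.

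**Figure D4:**
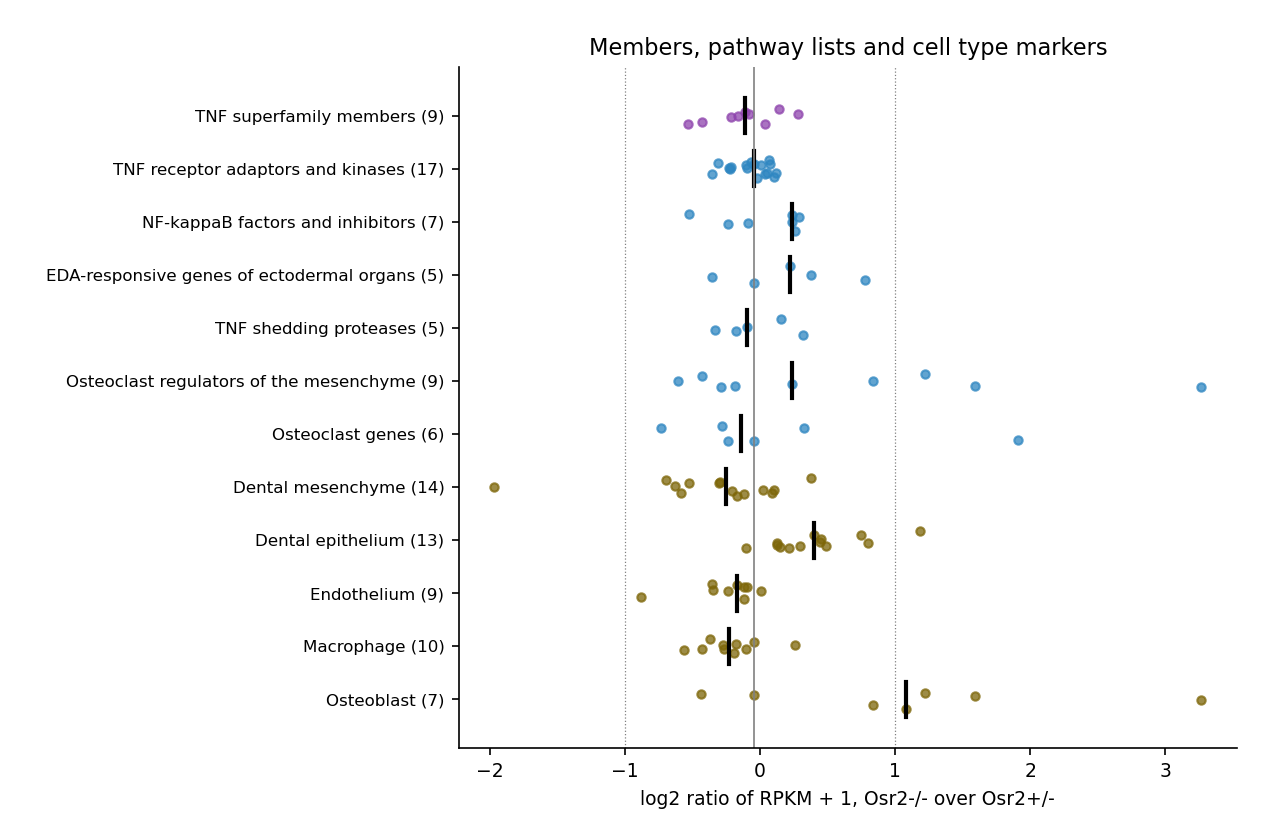
The log2 ratio of RPKM + 1, Osr2-/- over Osr2+/-, for each gene compared (points) in the family, in pathway lists and in cell type marker lists, with the number of genes in brackets; black bars are list medians, the grey line is the median of all genes compared and dotted lines mark 2-fold. The family and its adaptors centre near the grey line, at -0.11 and -0.05, while dental epithelium centres at 0.40, osteoblast markers at 1.08 and dental mesenchyme at -0.25.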

How the data were processed

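RNA of laser-captured lower molar mesenchyme was measured in 2 libraries, 1 per genotype. The submitters' processing notes name build mm9, Bowtie 0.12.7 and TopHat 1.4.1; the files are named for Cufflinks, with no version in the sources read, and cDNA was made with an amplifying NuGEN kit, per the labels' protocols. The deposited tables hold RPKM for 28107 transcript rows, which the authors had scaled to mapped reads. They also hold coverage, the mean read depth over a transcript, which was deposited unscaled, per the file headers. Locus starts counted from 0 and are given counted from 1.

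Rows were joined by transcript and locus, 54 rows of 18 genes with a failed or high-data status were left out (0 of them members), and RPKM was summed per gene. The measure was the log2 ratio of RPKM + 1 for genes at 1 RPKM or more in a library. Approximate reads were coverage times length over 44.8 bases, the median of that product over genes with 1 row where it lay within 20 to 66 bases. Of 1542 low values in the mutant 26.0%, and of 2218 in the control 27.5%, came within 0.1 of a whole read, where 20% would if values were spread evenly. The check supports the read step little, every interval rests on it, and no model was fitted to the reads. About 7.75 M reads in the mutant and 1.26 M in the control lay on transcripts. Levels have exact Poisson and ratios Clopper-Pearson 95% intervals (scipy 1.17.1), and limits are 3 reads. With several rows per gene the interval is that of the reads, not of the summed RPKM. Rpl26, a ribosomal protein gene, was near 0 in the mutant, so exact zeros can be failed estimates. The steps were tested on simulated data.

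The members and lists were chosen with earlier results of these data known. Every member at 1 RPKM or more, the Eda and RANKL branches and members whose interval excludes 1 are named with both values; of each pathway list, the genes 2-fold apart are named, or else up to 4 with the largest ratio. Other list genes named were chosen after their values were seen. Alternatives were another pseudocount, filter, scaling, row choice, status rule and read step. Upper molars were not analysed here.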

Additional observations from a re-analysis of the deposited data

How the results depend on the processing

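No replicates exist, so the alternatives show only the effect of processing, and of the 15 named members followed under them, Eda was the 1 whose sign changed. Its log2 ratio of -0.0034 was 0.035 on the TPM scale and 0.015 after median ratio scaling. List medians that changed sign were those of Eda-responsive genes from 0.22 to -0.35 at 5 RPKM, osteoclast genes from -0.14 to 0.053 without a filter, shedding proteases from -0.10 to 0.027 without a filter and 0.081 on the TPM scale, and ligands from -0.11 to 0.064 on the TPM scale. No paired analysis was possible because each genotype has 1 library. On the TPM scale the 1-unit filter admitted 27 members, of which 5 were 2-fold higher and 4 lower, with 0 intervals above 1 and 5 below. Of all 14051 genes it admitted, 895 were 2-fold higher and 690 lower, with 1154 intervals above 1 and 1504 below. With a pseudocount of 0.1 RPKM 197 genes were 2-fold higher and 244 lower, with a filter of 5 RPKM 24 and 26, and with the highest row per gene 151 and 270. Leaving out transcripts under 200 bases gave 37 higher. The members compared whose interval lay below 1 numbered 7 of 35 without a filter, beside 1861 of 16093 genes. At 5 RPKM, where 1 member was compared, they numbered 0. After median ratio scaling they numbered 1 of 9 (Tnfrsf21, without Tnfrsf11b), beside 1270 of 9815 genes, and with 2 times the bases per read 1 of 9. At 5 RPKM 387 of the 3909 genes compared had an interval above 1 and 808 below. Taking 2 times the bases per read gave 281 above and 724 below among the 9779 genes compared, and 297 above and 815 below among 15554 genes with a read. Of the 29 members with a read under that setting 3 stayed below 1 (Fas, Tnfrsf1b and Tnfrsf21). At 10 or more reads in all, chosen after seeing the data, 4 of 21 members stayed below 1 (Tnfrsf11a, Tnfrsf11b, Tnfrsf1b and Tnfrsf21), beside 1718 of 13283 genes. Of 105 values for 15 named members 95 lay within the bounds that counting error sets on the main log2 ratio. The 10 outside them were those of Eda2r, Edar, Tnfrsf11a, Tnfrsf11b and Tnfsf11 under the smaller pseudocount and the TPM scale. Of 142 list medians 134 lay within the medians of such bounds over the genes of the list. These bounds are wide and held every sign change of a list median given above except that of Eda-responsive genes, so lying within them does not mean a small shift. The control's depth of about 5.31 M reads limits all members under 1 RPKM.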
